A study of Homo sapiens with 4 samples.

Results

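Peaks of YAP and TEAD1 were examined near 6 genes of growth and survival in H69 cells, CCND1, CDK6, BIRC5, BCL2L1, MCL1 and AXL. The genes were given by name and not by their peaks, but they were chosen with earlier results of these data known. Each came with the limits of its gene body in build hg19 to the nearest kb. A peak belonged to a gene where its centre lay in the gene body or within 50 kb of it. This rule took 56 of 48962 TEAD1 peaks, 10 of 10118 peaks of the YAP antibody named Avruch and 1 of 2471 peaks of the YAP antibody from Santa Cruz. Near the 50 kb limit, the outermost TEAD1 peak taken lay 48.5 kb from AXL (score 51.47), and the nearest one left out lay 51.5 kb from MCL1 (score 55.91).

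The study used chromatin immunoprecipitation with sequencing (ChIP-seq), which recovers DNA fragments crosslinked to a chosen protein and counts where they pile up into peaks. The labels describe every library as the human cell line H69, crosslinked for 10 min with 1% formaldehyde and sonicated to fragments of about 250 bp, and they name no genotype, treatment or tissue of origin. There were 4 libraries, 1 each for the Santa Cruz antibody, the Avruch antibody, TEAD1 and an unrelated IgG, and the IgG library was not analysed here. The antibodies labelled only YAP and TEAD are called Avruch and TEAD1 after the design text of the series. With 1 library per antibody there was no replicate spread, so no difference below has a test, and intervals cover counting error only. The peak lists do not give the read depth, and they hold no expression values against which a cell type could be checked.

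YAP is a coactivator that the Hippo kinases keep out of the nucleus by phosphorylation, and that has no DNA-binding domain of its own. In the nucleus it is brought to DNA mainly by the TEAD factors, which recognise a short motif with the core GGAATG, often beside sites of the AP-1 factors. The 6 genes carry roles through which this pathway is known to act on growth. Cyclin D1 (CCND1) and its kinase partner CDK6 drive cells into DNA replication. Survivin (BIRC5), BCL-xL (BCL2L1) and MCL1 hold back apoptosis, and AXL is a receptor tyrosine kinase on the cell surface that binds the ligand GAS6.

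TEAD1 peaks lay in the windows of all 6 genes, whereas Avruch peaks lay near 3 of them and the Santa Cruz peak near 1. Stretches of the genome as long as these windows held a median of 1 to 4 TEAD1 peaks, so a window with at least 1 was common. TEAD1 peaks numbered 6 for CCND1, 9 for CDK6, 6 for BIRC5, 12 for BCL2L1, 12 for MCL1 and 11 for AXL. Avruch peaks numbered 5 for AXL, 3 for CDK6 and 2 for MCL1. CCND1 and BIRC5 had no peak of either YAP antibody. Each gene had a TEAD1 peak within 10 kb of its start, the nearest between 0.2 kb (MCL1) and 6.4 kb (BIRC5) away. No share over other gene starts can be set beside this, because no hg19 annotation was used here. Gene limits are rounded to 1 kb, so each distance from a gene start or end has an uncertainty of about 0.5 kb.

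**Figure D1:**
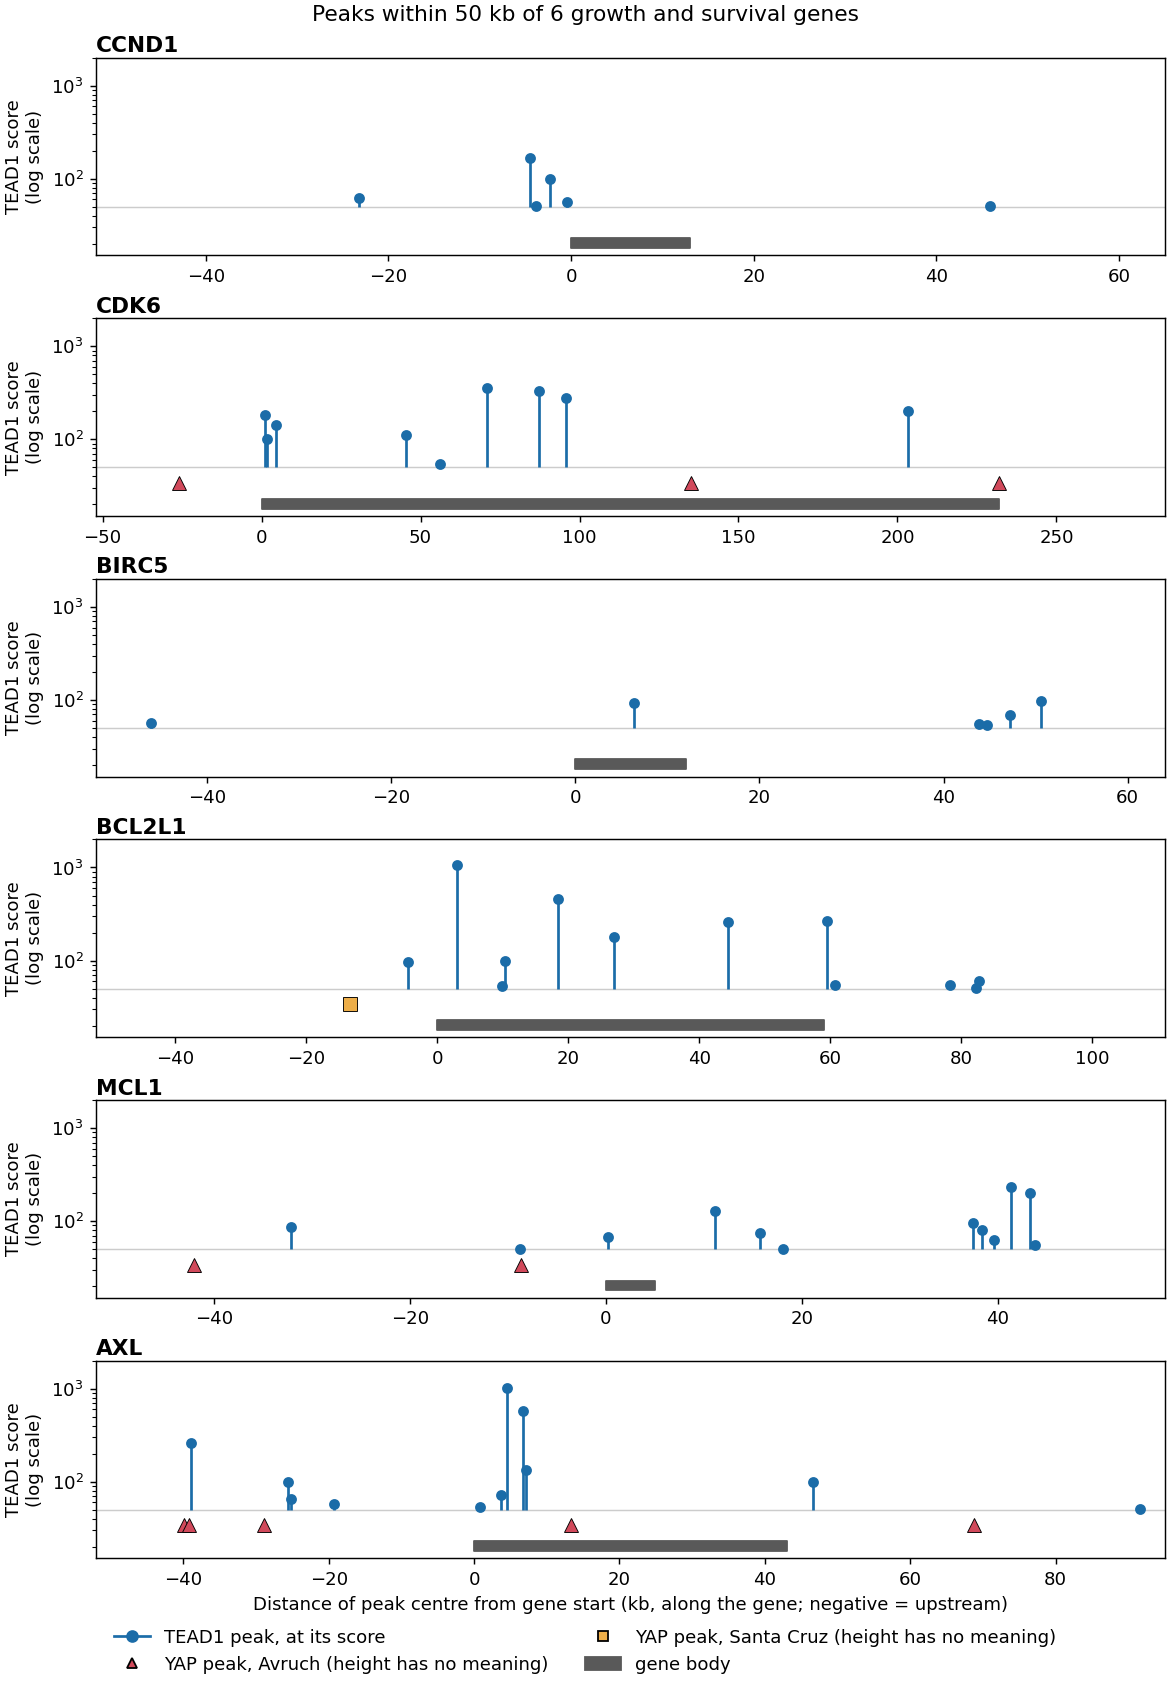
Each panel is 1 gene, with distance from the gene start in kb along the gene on the x axis and the deposited TEAD1 score on a log y axis; the grey bar is the gene body, and triangles and the square mark YAP peaks at a fixed height. The highest TEAD1 peaks stand in the gene bodies of BCL2L1 (1055.35) and AXL (1028.52), and most YAP peaks stand apart from them.

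To set the numbers against the rest of the genome, chromosomes 1 to 22 and X were divided into tiles of the same length as each gene's window. Tiles were not restricted to genes, because no hg19 annotation was used here, so a gene's surplus over the tiles is not a surplus over other genes. At least as many TEAD1 peaks lay in 0.865% of tiles for MCL1, 2.41% for BCL2L1, 2.53% for AXL, 7.23% for BIRC5, 7.35% for CCND1 and 19.9% for CDK6. MCL1 thus had the densest window, with 11.4 TEAD1 peaks per 100 kb, and CDK6 the sparsest, with 2.71. Tiles of the same chromosome alone gave another order. On chromosome 19, 19.4% of tiles held at least the 11 TEAD1 peaks of the AXL window (mean 6.25 per tile, against 2.33 over all chromosomes). On chromosome 17, 21.3% held at least the 6 of BIRC5. The shares on their own chromosomes were 1.01% for MCL1, 5.32% for BCL2L1, 6.12% for CCND1 and 21.8% for CDK6.

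**Figure D2:**
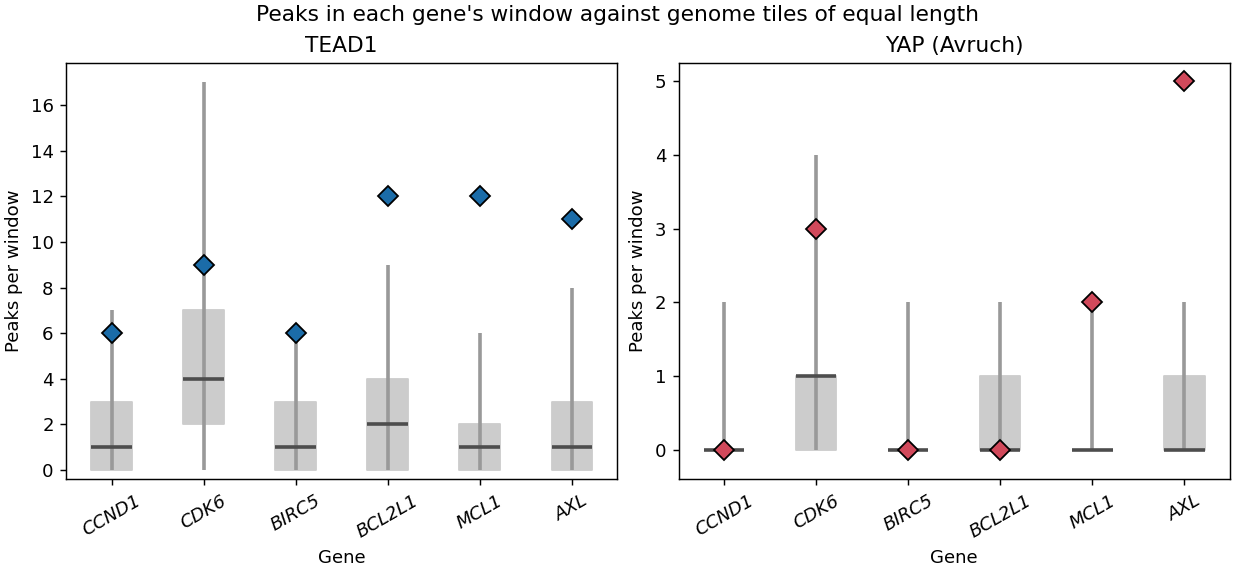
Diamonds give the number of TEAD1 peaks (left) and Avruch peaks (right) in each gene's window, and grey marks give tiles of equal length over the genome (line, 5th to 95th percentile; box, quartiles; bar, median). For TEAD1, the BCL2L1 (12), MCL1 (12) and AXL (11) diamonds lie above the 95th percentile, and for Avruch that of AXL (5) does.

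Near CCND1, the TEAD1 peaks gathered just upstream of the gene. Scores are the authors' values without a stated unit, and ranks are given within the list of one antibody. The strongest peak (chr11:69451364-69451634, score 167.25, rank 4764 of 48962) lay 4.5 kb upstream of the start. A peak at chr11:69453514-69453881 (score 100.15) lay 2.3 kb upstream, and the peak nearest to the start (chr11:69455501-69455725, score 56.39) lay 0.4 kb upstream. With a weak peak of score 50.92 these made a run of 4 peaks over 4.36 kb. No TEAD1 peak was found in the gene body, and the other 2 peaks of the window, 23.2 kb upstream and 45.9 kb past the start, had scores of 61.35 and 51.47. The nearest YAP peak to the strongest site was 77.4 kb away and belonged to the Santa Cruz list. Of equally long tiles, 24.1% held at least 1 Avruch peak, so a window without one was common. The RefSeq annotation places LTO1 and FGF19 within 50 kb of CCND1 in build GRCh38.p14.

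CDK6 showed the opposite arrangement, with all 9 TEAD1 peaks inside the gene body and none in the 50 kb to either side. Of these, 8 lay nearer to the start than to the end of the 232 kb gene, and 5 ranked among the strongest 10% of the list. The highest scores belonged to 3 peaks deep in the gene, at chr7:92394982-92395477 (355.73), chr7:92378548-92379088 (331.65) and chr7:92370029-92370583 (277.16), which lay 70.8, 87.2 and 95.7 kb past the start. A peak near the far end of the gene, 203.4 kb past the start, scored 202.45. At the start itself, a run of 3 peaks spanned 3.81 kb, with scores of 184.24, 102.07 and 143.22 in order from the start. The Avruch antibody gave 3 peaks here, and none overlapped a TEAD1 peak. One lay 26.1 kb upstream (score 59.35), one in the gene body 135.0 kb past the start (62.33) and one at the gene's end (chr7:92233852-92234059, 60.67). Their gaps to the nearest TEAD1 peak were 26.9, 38.9 and 28.3 kb. Gaps of at least 26.9 kb were common, at 28.1% of the 10059 Avruch peaks on chromosomes with a TEAD1 peak. All 3 peaks scored below the median of the Avruch list (63.8). At least 3 Avruch peaks lay in 10.4% of tiles of 332 kb.

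Sequences before annotated gene starts were taken from RefSeq (build GRCh38.p14) and searched for the TEAD motif GGAATG and the AP-1 motif TGANTCA on both strands, to show what lies at the starts beside these peaks. Entries were found for 3 of the 6 genes, CDK6, BCL2L1 and AXL, each with 2 starts. Over all 35116 entries, the 250 bases before the start held GGAATG in 11.9% and TGANTCA in 6.57%. These 250 bases before the outermost start of CDK6 (chr7:92836574-92836823, minus strand) held neither motif and were 80% G or C, against a median of 58.0% over all entries. They are printed 5′ to 3′, with no capitals because no motif was found.
CDK6 start 1: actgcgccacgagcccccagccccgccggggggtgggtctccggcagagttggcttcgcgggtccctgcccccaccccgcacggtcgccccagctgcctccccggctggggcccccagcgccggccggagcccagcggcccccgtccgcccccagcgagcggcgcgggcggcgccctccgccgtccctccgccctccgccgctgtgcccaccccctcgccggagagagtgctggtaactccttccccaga
The second CDK6 start, 2.6 kb further into the gene, had neither motif. No match says only that these letters are not in this window. The peaks are in hg19 and the sequences in GRCh38.p14, so positions were not carried from one to the other, and the TEAD1 peak nearest to the CDK6 start lay 1.1 kb inside the gene by the hg19 limits.

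BIRC5 was the only one of the 6 genes without a TEAD1 peak among the strongest 10% of the list. Its scores ran from 54.17 to 97.77, with a median of 62.8 against 67.1 over the whole list and 58.9 for CCND1, the lowest of the 6 medians. The peak in the gene body (chr17:76216220-76216514, score 93.34) lay 6.4 kb past the start. A run of 4 peaks over 6.99 kb lay downstream, 43.9 to 50.6 kb past the start, and held the highest score (chr17:76260432-76260729, 97.77). The remaining peak lay 46.0 kb upstream (score 56.08). At least 1 Avruch peak lay in 23.9% of tiles of 112 kb (38.0% on chromosome 17), and none lay in this window. RefSeq places 5 further protein-coding genes within 50 kb of BIRC5, namely C17orf99, SYNGR2, TK1, AFMID and TMEM235. Peaks of the window may therefore lie nearer to another gene's start than to that of BIRC5. The same holds for the other windows for which neighbouring genes are named.

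BCL2L1 carried the strongest TEAD1 peak of all 56, inside the gene close to its start. This peak (chr20:30307598-30308316, 719 bp wide) scored 1055.35, rank 222 of 48962, and lay 3.0 kb past the start. Only 0.955% of tiles of 159 kb held a peak as strong, and on chromosome 20 the share was 0.759% (3 of 395 tiles). A further strong peak stood 18.5 kb past the start (chr20:30292274-30292783, 462.2). Peaks of 181.15 and 258.54 followed at 27.0 and 44.4 kb, and one of 266.71 stood at the gene's end (chr20:30251368-30251683). A run of 6 peaks spanned 32.0 kb from 4.5 kb upstream of the start into the gene, and 5 of the 12 peaks ranked among the strongest 10% of the list.

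The only Santa Cruz peak near the 6 genes lay 13.3 kb upstream of BCL2L1 (chr20:30324237-30324393). Its score of 52.51 ranked 2110 of 2471 in its list, and 8.46 kb separated it from the nearest TEAD1 peak, one of score 96.33. Over the whole Santa Cruz list 30.9% of peaks overlapped a TEAD1 peak. At least 1 Santa Cruz peak lay in 8.37% of tiles, and in 14.4% of those on chromosome 20. No Avruch peak lay in the BCL2L1 window, while 31.5% of tiles held at least 1 (45.3% on chromosome 20). The window lay 0.773 Mb from a stretch of 3.15 Mb without a peak in any list, the only one of the 6 windows within 2 Mb of a stretch of at least 2.5 Mb, and no window had a peak at least 1 kb wide within 50 kb. RefSeq places COX4I2 and TPX2 within 50 kb of BCL2L1, so the Santa Cruz peak and others outside the gene may lie nearer to another gene's start. The 250 bases before the outermost BCL2L1 start (GRCh38.p14, chr20:31723964-31724213, minus strand) held neither motif and are shown without capitals, as BCL2L1 had the strongest peak.
BCL2L1 start 1: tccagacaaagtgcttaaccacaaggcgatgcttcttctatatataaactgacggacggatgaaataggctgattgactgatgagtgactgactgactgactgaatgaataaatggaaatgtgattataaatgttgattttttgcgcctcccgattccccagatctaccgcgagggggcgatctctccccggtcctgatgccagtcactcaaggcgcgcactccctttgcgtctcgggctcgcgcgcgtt
The other BCL2L1 start, 1.1 kb further in, held neither motif either.

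MCL1 is the shortest of the genes, 5 kb long, and its 12 TEAD1 peaks lay mostly downstream. A run of 6 peaks over 6.71 kb, between 37.5 and 43.8 kb past the start, held the strongest ones (chr1:150510395-150510906, 232.2, and chr1:150508507-150508855, 199.69), which were the only peaks of the window among the strongest 10%. A run of 3 peaks lay 11.1 to 18.1 kb past the start, with scores of 129.35, 74.59 and 50.2. At the start itself, a peak of middling rank (chr1:150551654-150551941, 67.5, rank 24104 of 48962) lay 0.2 kb inside the gene. ADAMTSL4 and ENSA are the protein-coding genes with a symbol other than a LOC number that RefSeq places within 50 kb.

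One of the 2 overlaps between a YAP and a TEAD1 peak lay upstream of MCL1. The Avruch peak chr1:150560550-150560667 (score 58.91, rank 7136 of 10118) shared 77 bp with the TEAD1 peak chr1:150560591-150560842, 8.7 kb upstream of the start. That TEAD1 peak was one of the weakest of its list (50.59, rank 48228 of 48962). The other Avruch peak of the window, 42.0 kb upstream, scored 77.21 and was 9.29 kb from the nearest TEAD1 peak. At least 2 Avruch peaks lay in 5.02% of tiles of 105 kb (6.53% on chromosome 1).

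AXL had the most YAP peaks of the 6 genes. It also had a compact group of TEAD1 peaks at the front of the gene, 2 of them among the strongest 10% of the list. The strongest of these (chr19:41729095-41729846, 752 bp wide) scored 1028.52, rank 230 of 48962, and lay 4.5 kb past the start. The next (chr19:41731413-41731986) scored 569.54 and lay 6.7 kb past the start. A weaker peak (chr19:41731994-41732369, 132.3) followed it after 7 bp. With peaks of 53.32 and 72.19 nearer to the start, these made a run of 5 peaks over 6.71 kb. A peak as strong as the highest stood in 0.888% of tiles of 143 kb, and in 2.67% of those on chromosome 19 (11 of 412).

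The 5 Avruch peaks lay outside this group. The strongest of them (chr19:41685740-41685912, 89.41, rank 1310 of 10118) lay 39.2 kb upstream of AXL, wholly within the widest TEAD1 peak of the 56 (chr19:41685632-41686585, 954 bp, score 261.15). A further Avruch peak (chr19:41684971-41685101, 65.16) stood 0.530 kb from that same TEAD1 peak. The others lay 28.9 kb upstream (65.02), 13.3 kb inside the gene (69.89) and 68.7 kb past the start (76.63), with gaps of 3.03, 5.85 and 21.8 kb to TEAD1. The gap from the strongest TEAD1 peak to the nearest YAP peak was 8.38 kb. At least 5 Avruch peaks lay in 0.708% of tiles over the genome and in 2.43% of those on chromosome 19. RefSeq places CYP2S1, HNRNPUL1 and CCDC97 within 50 kb of AXL, so peaks outside the gene may lie nearer to another gene's start.

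RefSeq gives AXL an outer start and a second start 7.5 kb further in, and the sequences before both are shown because they differ in the TEAD motif. The second held 1 match, 212 bases before its start, read as the reverse complement CATTCC and set in capitals. Neither held the AP-1 motif. In hg19 the TEAD1 peaks of scores 569.54 and 132.3 lay 6.7 and 7.2 kb past the outer start, but the builds differ and whether a peak covers this match was not tested. The sequences are from GRCh38.p14, plus strand, chr19:41218973-41219222 for the outer start and chr19:41226505-41226754 for the second.
AXL start 1: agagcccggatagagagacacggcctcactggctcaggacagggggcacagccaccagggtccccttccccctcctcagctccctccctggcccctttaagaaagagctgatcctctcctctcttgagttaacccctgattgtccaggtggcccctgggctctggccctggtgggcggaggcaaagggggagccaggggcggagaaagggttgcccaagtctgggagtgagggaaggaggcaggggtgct
AXL start 2: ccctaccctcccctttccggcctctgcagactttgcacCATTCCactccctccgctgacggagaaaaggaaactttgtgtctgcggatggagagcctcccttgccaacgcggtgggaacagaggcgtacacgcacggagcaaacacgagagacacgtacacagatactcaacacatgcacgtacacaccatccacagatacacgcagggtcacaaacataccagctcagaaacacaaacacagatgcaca

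Across the 6 genes, overlap between the YAP and TEAD1 lists was about as frequent as over the lists as a whole. Of the 56 TEAD1 peaks, 2 overlapped a YAP peak (3.57%, exact binomial 95% interval 0.435 to 12.3), where 3.59% of the whole TEAD1 list did. Of the 10 Avruch peaks, 2 overlapped a TEAD1 peak (20%, 2.52 to 55.6), where 19.4% of the Avruch list did. Peaks of one gene share a locus and are not independent, so the intervals of this paragraph are too narrow. Within 1 kb, overlaps included, the number was 3 of 10, against 27.3% of the list. The median gap from an Avruch peak to TEAD1 was 7.57 kb for the 10 and 8.56 kb for the list. For the gap from a TEAD1 peak to YAP, the median was 29.3 kb for the 56 and 65.7 kb for the list. Both list medians leave out peaks on chromosomes without a peak of the other kind. No peak near these genes was found with both YAP antibodies, and the gaps from the 10 Avruch peaks to the nearest Santa Cruz peak ran from 89.4 to 854 kb. Over the whole Avruch list, 8.16% of peaks overlapped a Santa Cruz peak, and the exact interval for 0 of 10 reaches 30.8%, so such a share was not detectable as different with 10 peaks.

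**Figure D3:**
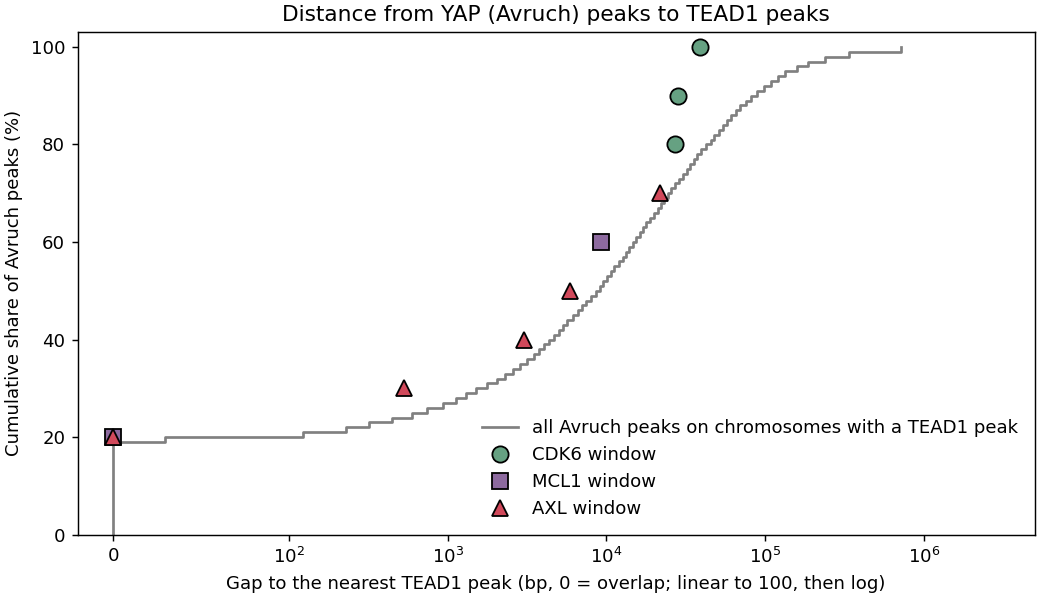
The x axis gives the gap from a YAP (Avruch) peak to the nearest TEAD1 peak in bp (0 is an overlap; linear to 100, then log), and the y axis the cumulative share of peaks in percent, for the 10 peaks near CDK6, MCL1 and AXL (symbols) and all Avruch peaks on chromosomes with a TEAD1 peak (line). The symbols start at 20% at a gap of 0, beside 19.4% of the whole Avruch list, and the CDK6 peaks have the widest gaps (26.9 to 38.9 kb).

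TEAD1 peaks in the gene bodies had a higher median score than the list as a whole, and those in the flanks a slightly lower one. The median score of all 56 was 94.7 against 67.1 over the list, while the medians by gene ran from 58.9 (CCND1) to 184 (CDK6). In all, 16 of 56 ranked among the strongest 10% of the list (28.6%, 17.3 to 42.2), where 10.0% do by definition. Of these 16, CDK6 and BCL2L1 held 5 each, AXL 3, MCL1 2 and CCND1 1. Peaks in gene bodies had a median score of 162 (22 peaks), and those in the flanks 64.6 (34 peaks). Of the 22, CDK6 held 9, BCL2L1 6, AXL 5, BIRC5 and MCL1 1 each, and CCND1 none. Among the strongest 10% were 11 of the 22 in gene bodies and 5 of the 34 in the flanks. Without CDK6, whose peaks all lie in its body, these were 6 of 13 and 5 of 34. Gene-body peaks of the whole list were not known, because no hg19 annotation was used, so no such share stands beside these. Peaks of one gene share a locus and are not independent, so the interval is too narrow. A YAP peak overlapped 1 of the 16, the one upstream of AXL, and 1 of the other 40. Over the whole TEAD1 list the shares were 9.23% of the strongest 10% and 2.97% of the rest. With 1 overlap each, the members are too few to show whether they follow this order.

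**Figure D4:**
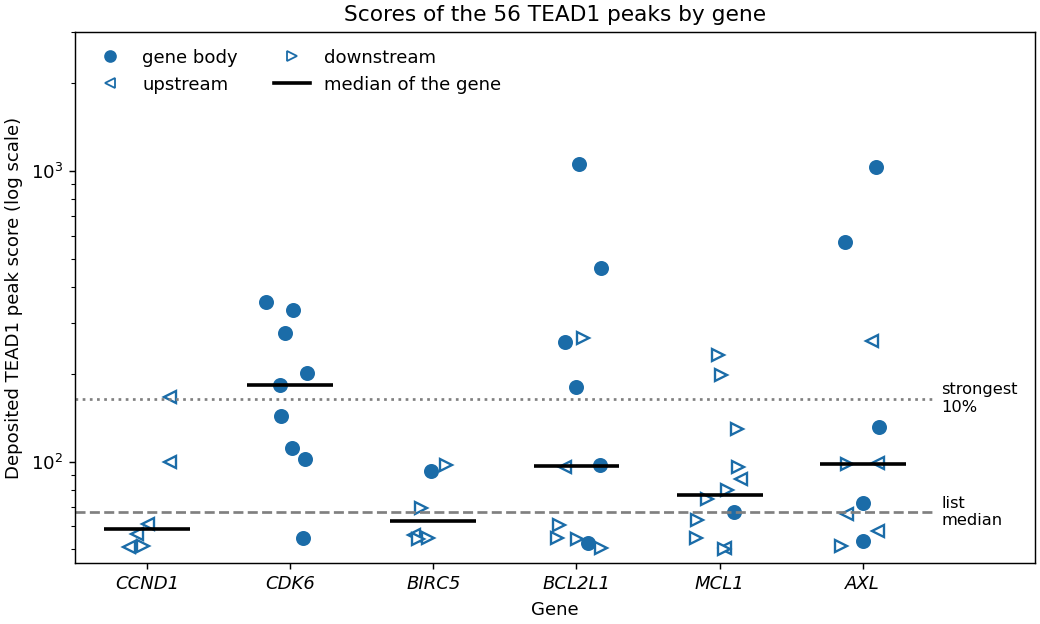
Each symbol is 1 of the 56 TEAD1 peaks, placed by gene (x axis) and deposited score (log y axis); filled circles lie in the gene body, open triangles upstream or downstream, black bars are medians by gene, and the broken and dotted lines mark the median and the strongest 10% of the whole list. The circles of CDK6, BCL2L1 and AXL make up all 11 gene-body peaks above the dotted line, and BIRC5 has no peak above it.

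Many of the TEAD1 peaks near these genes stood in close runs. Because the study is titled after super-enhancers, long stretches of closely spaced bound elements, peaks in runs of at least 3 with gaps of at most 10 kb were counted. Such runs held 37 of the 56 peaks (66.1%, 52.2 to 78.2), against 29.3% of the whole list. Peaks enter a run together and are not independent, so this interval is too narrow. There were 9 runs in all, with 2 each at BCL2L1, MCL1 and AXL and 1 at each of the other genes, and the longest was the 32.0 kb run at the front of BCL2L1. A window with more peaks has more of them in runs, so this share is not separate from the numbers per window. A YAP peak overlapped 0 of the 37 peaks in runs and 2 of the 19 outside them, those upstream of MCL1 and of AXL. Over the whole TEAD1 list the shares were 5.66% in runs and 2.74% outside, and these numbers of members are too small to show a difference from either.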

How the data were processed

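The ChIP-seq values were 3 deposited peak lists of 5 columns without a header, 1 per antibody. Reads were aligned with Bowtie2 to hg19, per the submitters' processing notes, and the deposited peak names carry the name MACS. Its version, settings and control library were not stated in any source used. Scores are as deposited by the authors, have no stated unit and were ranked only within their list. Starts were read as counted from 0, since the lowest start in the Avruch list is 0, and are printed counted from 1.

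Gene limits in hg19 came from the rule that defined the members. Strands came from RefSeq for CDK6, BCL2L1 and AXL and from general knowledge for CCND1, BIRC5 and MCL1. An overlap is at least 1 shared bp, and intervals are exact binomial at 95%. Python 3.11.15, pandas 2.3.3 and scipy 1.17.1 were used. The functions for overlaps, gaps, runs and joining of peaks were tested on simulated data. All YAP peaks, the nearest and strongest TEAD1 peak of each gene and all overlaps were named. Further peaks in the text, the contrast of gene body and flanks, the strongest 10%, YAP overlap by class of TEAD1 peak and leaving out genes were chosen after the values were seen. The genes and all comparisons were chosen with earlier results of these data known. Further cell cycle, survival and AXL-family genes were listed but not analysed here, since no hg19 annotation was used.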

Additional observations from a re-analysis of the deposited data

How the results depend on the processing

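The numbers of peaks followed the window, as its length does. Windows of 10, 20 and 100 kb took 32, 36 and 95 TEAD1 peaks, 4, 4 and 18 Avruch peaks, and 0, 1 and 3 Santa Cruz peaks. Keeping the 50% of peaks with the highest scores left 35 TEAD1, 6 Avruch and 0 Santa Cruz peaks, so no share could be given for Santa Cruz, and none of the 3 CDK6 peaks of Avruch was among the 6. Joining peaks with gaps of at most 1 kb gave 44, 9 and 1. When shared bases had to cover 50% of each peak, 0 of 56 TEAD1 peaks and 0 of 10 Avruch peaks overlapped (0% each). The overlap at MCL1 shared 77 bp of a TEAD1 peak 252 bp wide, and that at AXL 173 bp of one 954 bp wide. Both are under 50% of the TEAD1 peak. With windows of 200 bp, 1.79% of the TEAD1 peaks and 10.0% of the Avruch peaks overlapped. The share of TEAD1 peaks in runs was 50% (28 of 56) for a gap limit of 5 kb and 91.1% for one of 20 kb. Shares of the whole lists at these overlap and gap settings are not given here. None of these values can therefore be set beside a whole-list share above, such as the 29.3% in runs with gaps of at most 10 kb. The share among the strongest 10% was 40.6%, 36.1% and 25.3% with windows of 10, 20 and 100 kb, and 23.4% to 32.0% when each gene was left out in turn. No paired analysis was possible because each antibody has 1 library. Read depth is not known, so a gene without a YAP peak is not shown to lack YAP.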

Other observations

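Some neighbouring TEAD1 peaks were almost touching. At AXL, the peaks of scores 569.54 and 132.3 were separated by 7 bp, and at BCL2L1 the peaks chr20:30300400-30300801 (97.84) and chr20:30300814-30301243 (52.64) by 12 bp. At MCL1, the peaks of scores 54.75 and 199.69 were separated by 115 bp. Each such pair counts as 2 peaks in the numbers above.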
